A study of Mus musculus with 4 samples.

Results

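Respiratory complex I, the NADH:ubiquinone oxidoreductase of mitochondria, was followed through every probe set (the group of array features that measures a transcript) whose only gene symbol began with Nduf. The rule took 88 of 45101 probe sets and 44 of 18194 genes by symbol, and it was chosen with earlier results of these data known. Of these genes 34 encode subunits, 8 encode the assembly factors Ndufaf1 to Ndufaf8 and are given apart, and 2 carry the name without being complex I subunits (Ndufa4 and Ndufa4l2). The tested samples were pseudopodia of NIH/3T3 cells, a mouse fibroblast line, and the samples set against them were the cell bodies of the same kind of culture, with 2 arrays each. In both, serum-starved cells were plated on fibronectin over a membrane with pores, left to spread for 2 h, and then exposed from below to 150 ng/ml of lysophosphatidic acid (LPA), a phospholipid that stimulates migration, for 1 h, so that protrusions grew through the pores. Both fractions were fixed with 0.3% formaldehyde for 10 min before the membrane was wiped clean on 1 side. A reversal of the fixation for 45 min and calf serum at 10% are also listed for both. Unstimulated cells were not analysed here, and the labels do not say how the 2 cultures behind the replicates were kept apart, so p-values measure the spread between these arrays only. In such bulk samples, a change in the share of cells or cell parts and a change in RNA per cell cannot be told apart.

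Complex I takes electrons from NADH and passes them to ubiquinone while it pumps protons across the inner mitochondrial membrane. Its peripheral arm holds the N module, where NADH is oxidised, and the Q module, where ubiquinone is reduced. The proton channels lie in the membrane arm, whose hydrophobic core subunits are encoded by mitochondrial DNA. The core subunits are conserved from bacteria, and the supernumerary subunits were added around them in eukaryotes. All Nduf RNAs are transcribed in the nucleus and translated in the cytoplasm, and the proteins are then imported into mitochondria.

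Every difference is pseudopodia minus cell body on the log2(signal + 32) scale and stands with its standard error from limma (n = 2 arrays in either fraction), and p is adjusted by Benjamini-Hochberg over 22519 probe sets. The probe sets kept for the test had a mean signal at or above the median. They included 67 of 76 subunit probe sets (33 of 34 genes) and 9 of 10 assembly factor probe sets (8 of 8 genes). Each gene stands by its brightest kept probe set unless another is named. Each array gave 1 signal per probe set on a common scale, with a median of 31.0 and 33.3 on the pseudopodia arrays and 29.8 and 33.2 on the cell body arrays. Of 10 fibroblast markers, 7 had a signal above 1000 on every array, while Thy1 and Postn stayed below 100, and no marker of blood, epithelium, endothelium, fat or muscle reached 1000 on all arrays. For beta-actin, the 3' probe set over the 5' one, a sign of RNA integrity, gave 1.77 and 3.41 in pseudopodia and 1.55 and 1.89 in cell bodies. The same ratio for Gapdh was 0.960 and 1.01 in pseudopodia and 0.919 and 0.946 in cell bodies. The part of RNA integrity in the results below was not tested.

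The RNAs of complex I subunits stood modestly higher in pseudopodia than in cell bodies as a list, although nearly all members missed the threshold. The median subunit gene differed by 0.41, beside 0.015 for the median of all 10960 genes, and by 0.40 and 0.45 in the replicate 1 and replicate 2 pairs. Of 33 subunit genes, 31 had positive values, beside 51.3% of all genes, and 27 were positive in both pairs, beside 36.2%. Both pseudopodia arrays exceeded both cell body arrays in 26 subunit genes (27.4% of all genes), and the reverse held in 2 (25.2%). By the test 1 gene passed as higher and none as lower, where 1.3% of all genes passed as higher and 2.61% as lower. At an unadjusted p under 0.05, 18 subunit genes were higher and none lower, beside 9.84% of all genes higher and 1245 of 10960 lower.

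The call count depended on how the arrays were paired. Replicates with the same number shared an experiment code and a scan day. With that number as a block, 20 of 33 subunit genes passed as higher and none as lower, beside 8.28% and 10.3% of all genes. The block left 1 residual degree of freedom against 22.7 from the prior, so those p-values owe most to the variance pooled over probe sets.

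The direction of the list was relative to the scale used. Positive values were found for 28 of the 33 under quantile normalization and for 23 on hybridization controls, with the list 0.18 and 0.37 above the median gene, against 0.40 as reported. Those scalings placed the median gene at 0.073 and -0.29. Hybridization controls apply a single factor per array, so they could move the gap between list and median gene only slightly.

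**Figure D1:**
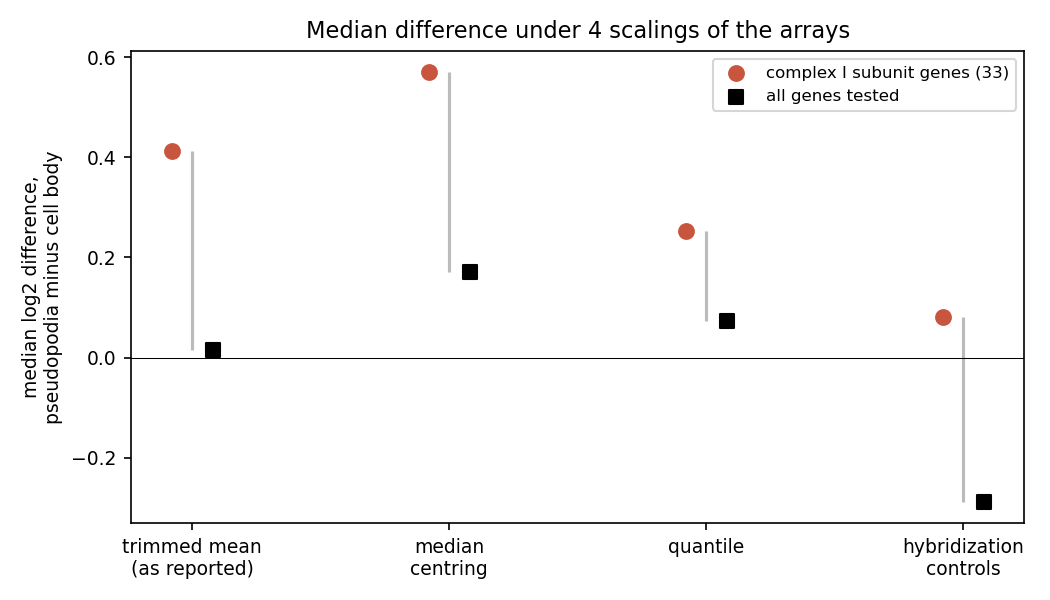
Median log2 difference (pseudopodia minus cell body, vertical axis) of the 33 complex I subunit genes (circles) and of all 10960 genes (squares) under 4 scalings of the arrays (horizontal axis). The subunit median lies above the median gene under each. The gap is 0.40 with the trimmed mean, 0.40 with median centring, 0.18 after quantile normalization and 0.37 on hybridization controls. Median centring shifts all genes of an array alike and could not change the gap. Hybridization controls apply a single factor per array and could change it only slightly.

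Signal strength moved with this result. Of the 33 subunit genes, 28 lay in the top decile of all genes by signal, where the median of all genes was 0.24, 70.6% had positive values and 5.11% passed as higher. The 28 subunits in that decile had a median of 0.44, and 27 of them were positive. Over the deciles from 4 to 7 (10 being the brightest), by contrast, the median of all genes lay between -0.096 and -0.067. The relation was not a steady rise, as decile 1, the dimmest, had a median of 0.14 with 58.4% positive. The 5 subunit genes outside the top decile had values of 0.91 (Ndufs5), 0.37 (Ndufb1), -0.21 (Ndufs1), 0.27 (Ndufs4) and 0.39 (Ndufb3). The part of brightness in the shift of the list was not tested.

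**Figure D2:**
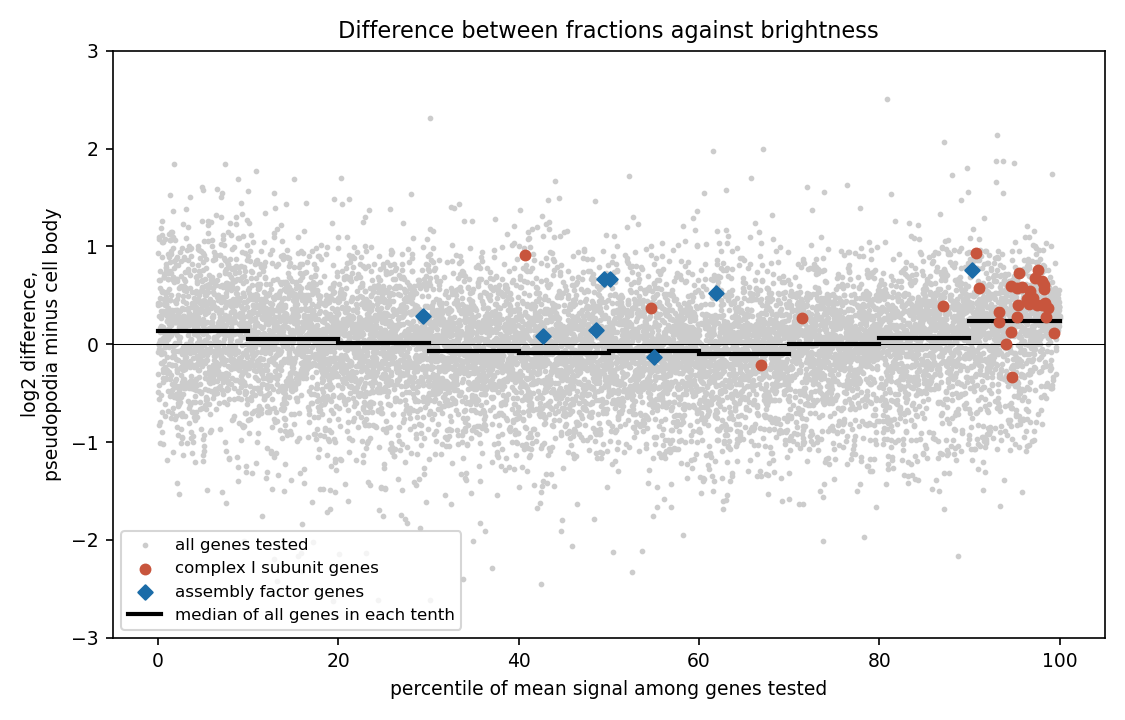
Log2 difference, pseudopodia minus cell body (vertical axis), against the percentile of the mean signal (horizontal axis) for all 10960 genes (grey), subunit genes (circles) and assembly factor genes (diamonds), with bars at the median of all genes in each decile. The bar of the top decile stands at 0.24 and most of the 28 subunit genes in it lie above that bar; the assembly factors are mostly in dimmer deciles.

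The RNAs that passed the test encode Ndufa5, a supernumerary subunit of the Q module, and Ndufb5, a supernumerary subunit of the distal membrane arm. Ndufa5 had signals of 2941.2 and 3973.2 in pseudopodia, against 1668 and 1902.6 in cell bodies. Both pseudopodia arrays were thus above both cell body arrays. It rose by 0.93 ± 0.21, or 1.91-fold (limma adjusted p = 0.0499). The call lies at the threshold and held in 7 of 18 settings of the processing. It was lost narrowly with the filter on mean log2 values (limma adjusted p = 0.050001), with the filter at the 75th percentile (0.0513), with a pseudocount of 16 (0.0529) and after quantile normalization (0.0613). It was lost by more without a filter (0.0996), without the variance trend (0.144) and without cell body replicate 1 (0.376) or replicate 2 (0.261). On hybridization controls the difference was 0.60 (0.135), and over the mean of its probe sets it was 0.48 (0.131). The other kept probe set of Ndufa5 gave 1613.6 and 972.3 in pseudopodia, against 1249.3 and 1228.6 in cell bodies. Those arrays overlapped, and the difference was 0.016 ± 0.26 (limma adjusted p = 0.981).

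Ndufb5 passed on its dimmer kept probe set only. That probe set read 4803.9 and 5350.6 in pseudopodia, against 2754.7 and 2825.4 in cell bodies. It rose by 0.86 ± 0.16 (limma adjusted p = 0.0356), where 1.09% of all probe sets passed as higher, 3.38% as lower and 4.47% in either direction. Over the 67 kept subunit probe sets, 2 passed as higher and none as lower, and 61 had positive values, beside 47.7% of all probe sets. The brightest probe set of Ndufb5 read 5428.6 and 5060.2 in pseudopodia, against 3557 and 3351 in cell bodies. Its groups did not overlap either, and it differed by 0.60 ± 0.16 without passing (limma adjusted p = 0.0747). Over 15 settings of the processing, the dimmer probe set passed in 10, with differences from 0.53 to 1.01.

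**Figure D3:**
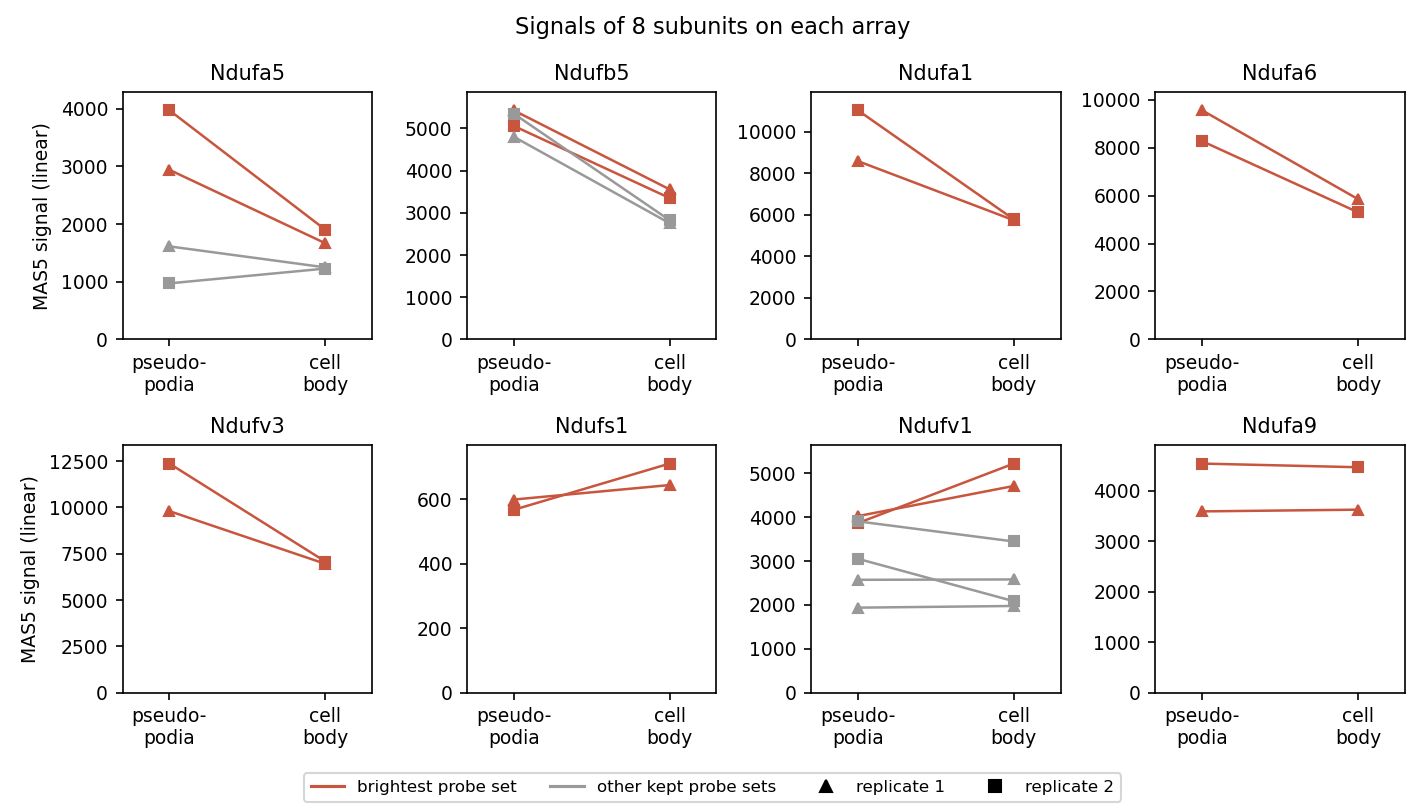
MAS5 signal on a linear scale (vertical axis) of 8 subunit genes in pseudopodia (left) and cell bodies (right), with lines joining the arrays of the same replicate number; red marks the brightest probe set and grey the other kept probe sets. Ndufa5, Ndufb5, Ndufa1, Ndufa6 and Ndufv3 are higher in both pseudopodia arrays on the red probe set, Ndufs1 and Ndufv1 are lower, and Ndufa9 is level within each replicate.

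The upstream sequence of Ndufa5 is shown because this gene passed the test and because its upstream windows hold a match to the NRF1 motif. NRF1 is a transcription factor known for binding promoters of respiratory chain genes. The window shown covers the 250 bases before a RefSeq start, at chr6:24527691-24527940 on the minus strand (GRCm38.p6). Capitals mark the match to the NRF1 consensus. Motifs were searched on both strands, and a match could overlap one of another motif.
Ndufa5: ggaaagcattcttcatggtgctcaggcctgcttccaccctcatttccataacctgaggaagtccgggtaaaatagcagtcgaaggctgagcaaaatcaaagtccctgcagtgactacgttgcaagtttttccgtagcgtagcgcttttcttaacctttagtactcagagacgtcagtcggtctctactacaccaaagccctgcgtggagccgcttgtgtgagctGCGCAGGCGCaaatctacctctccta
The first base of the match lay 26 bases before this start. RefSeq also held another start of Ndufa5, and the same match lay 190 bases before that one. RefSeq held promoter windows for 30 tested subunit genes, and 3 of them (10%) contained this motif, beside 9.82% of the 8924 tested genes with a window. The untested Ndufb4 held it too. The ETS core CCGGAAG occurred in 3 (10%) of the tested subunit genes and in 16.1% of all tested genes, and the YY1 motif in 0 of the tested subunit genes and in 2.53% of all tested genes. The upstream window of Ndufb5 held none of these. These matches describe letters in a window and not binding.

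The N module oxidises NADH. Of its 7 genes tested, 5 had positive and 2 negative values, none passed, and the median was 0.40. Its highest member was Ndufv3, a supernumerary subunit beside the flavin site, with signals of 9800.5 and 12368.3 in pseudopodia, against 6956.4 and 7079.4 in cell bodies. The groups did not overlap, and the difference was 0.65 ± 0.16 (limma adjusted p = 0.0655). Ndufa2, a small supernumerary subunit, read 5482.2 and 7444.6 in pseudopodia, against 3875.5 and 4667 in cell bodies (0.59 ± 0.20, limma adjusted p = 0.139). Again both pseudopodia arrays were the higher.

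The members with the lowest values of all 33 were core subunits of this module. Ndufv1, which binds FMN and NADH, read 4024.4 and 3865.2 in pseudopodia, against 4711.5 and 5221.8 in cell bodies on its brightest probe set. Both pseudopodia arrays were lower, but the difference of -0.33 ± 0.16 did not pass (limma adjusted p = 0.276). Another kept probe set read 2572.4 and 3905.1 in pseudopodia, against 2580.7 and 3446 in cell bodies (0.088 ± 0.25). The remaining one read 1937.6 and 3052.2 in pseudopodia, against 1976.2 and 2084.7 in cell bodies (0.26 ± 0.24). Neither passed, and both had overlapping arrays. The mean of its 3 probe sets was close to no difference, at 0.0057.

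Ndufs1, the largest core subunit, which carries iron-sulfur clusters, read 599.5 and 567.6 in pseudopodia, against 644.5 and 711.2 in cell bodies. Its groups did not overlap, yet the difference of -0.21 ± 0.20 was about the size of its error (limma adjusted p = 0.600). It was the subunit gene with a negative value in all 17 settings that gave one. Ndufv2, the remaining core subunit of this module and also an iron-sulfur protein, lay on the opposite side. It read 8213 and 7938.8 in pseudopodia, against 5529.5 and 6138.4 in cell bodies (0.47 ± 0.15, limma adjusted p = 0.117), and its other probe sets stood at 0.77 and 0.87.

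Ndufs4, which stabilises the N module and whose loss causes an encephalopathy in mice, differed by 0.27 ± 0.21 on its brightest probe set. A much dimmer one, at 212.2 and 282 in pseudopodia and 86.7 and 138.5 in cell bodies, gave the highest value of any subunit probe set, 1.05 ± 0.29 (limma adjusted p = 0.0827). Ndufa12, a supernumerary subunit, read 7850.3 and 9746.2 in pseudopodia, against 6334.8 and 6894.8 in cell bodies on its brightest probe set. That probe set stood at 0.40 ± 0.16, without overlap, and 2 others at 0.53 and 0.29. The fourth read only 22 and 4.3 in pseudopodia, against 67.3 and 53.1 in cell bodies, and gave -1.45 ± 0.47 (limma adjusted p = 0.123), the lowest value of any subunit probe set.

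The Q module carries electrons to ubiquinone. All 7 of its genes tested had positive values, Ndufa5 alone passed, and the median was 0.28. Ndufa6, a supernumerary subunit of the LYR family, read 9560.1 and 8272.7 in pseudopodia, against 5854.7 and 5306 in cell bodies. The groups were well apart, and the difference of 0.67 ± 0.16 narrowly missed the threshold (limma adjusted p = 0.0559). The lowest were Ndufa9, which binds NADPH, at 3586.9 and 4533 in pseudopodia and 3621.1 and 4460.6 in cell bodies (0.0048 ± 0.19), and Ndufs8, an iron-sulfur core subunit, at 15291.2 and 20086.2 in pseudopodia and 15950.5 and 16486.4 in cell bodies (0.11 ± 0.16). Both overlapped between fractions. Ndufa9, Ndufs8, Ndufs3 and Ndufa7 turned negative on hybridization controls, and all of these but Ndufs3 also after quantile normalization. The 5 other kept probe sets of Ndufs8 stood between 0.10 and 0.41, and none passed.

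The remaining core subunits of the Q module were Ndufs7, next to the quinone site, and Ndufs3. Ndufs7 read 4727.6 and 6921.2 in pseudopodia, against 4199.9 and 4474.8 in cell bodies, and differed by 0.40 ± 0.21 without overlap, with 0.17 in the replicate 1 pair and 0.63 in the replicate 2 pair. Its other probe set, at 3601.2 and 2895.1 in pseudopodia and 3467.8 and 3193.2 in cell bodies, stood at -0.043 ± 0.18. Ndufs3 stood at 0.22 ± 0.16. The 6 core genes, all in the N and Q modules, had a median of 0.17, with 4 positive, and the 27 supernumerary genes of the whole complex one of 0.46, with 27 positive. This difference between core and supernumerary genes was not tested.

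The proximal membrane arm joins the peripheral arm to the proton channels. All 8 genes tested had positive values, none passed, and the median was 0.50. The highest value belonged to Ndufs5, a supernumerary subunit of the intermembrane space, but it rested on a dim and uneven probe set. It read 243.7 and 326.1 in pseudopodia, against 79.8 and 247.5 in cell bodies, and the arrays overlapped. The difference of 0.91 ± 0.45 did not pass (limma adjusted p = 0.282), with 1.44 in the replicate 1 pair and 0.38 in the replicate 2 pair.

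Ndufa1, a short X-linked subunit needed for assembly, read 8584.5 and 11028.9 in pseudopodia, against 5737.9 and 5781.7 in cell bodies. The groups were clearly apart, and at 0.75 ± 0.17 it just missed the threshold (limma adjusted p = 0.0508). It passed in 8 of 17 settings. Ndufa3 read 11926.8 and 10533.6 in pseudopodia, against 7610 and 7486.2 in cell bodies (0.57 ± 0.14, limma adjusted p = 0.0670). Ndufc1, Ndufa13 (also known as Grim19) and Ndufa10 stood at 0.57, 0.42 and 0.41 without overlap. The lowest values were those of Ndufc2, at 9381.6 and 11026.6 in pseudopodia and 7248.5 and 8150 in cell bodies (0.40 ± 0.16), and of Ndufa8, a twin CX9C protein, at 4732.5 and 4306.5 in pseudopodia and 3582.7 and 4765.6 in cell bodies (0.13 ± 0.19). Ndufa8 overlapped, with 0.40 in the replicate 1 pair and -0.15 in the replicate 2 pair.

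The distal membrane arm holds the outermost proton channels, and its Ndufb subunits surround them. All 10 genes tested had positive values, none passed on its brightest probe set, and the median was 0.50. Ndufb10, a subunit facing the intermembrane space, read 5344.7 and 7675.8 in pseudopodia, against 3637.5 and 4069.6 in cell bodies (0.73 ± 0.21, limma adjusted p = 0.0862). Ndufb11, X-linked, read 9624.5 and 13275.9 in pseudopodia, against 6668.9 and 8298.5 in cell bodies (0.60 ± 0.20, limma adjusted p = 0.127). Neither overlapped between fractions.

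At the lower end of this arm, Ndufb2 read 5437.8 and 5341 in pseudopodia, against 4257 and 4602.3 in cell bodies (0.28 ± 0.15), and turned to -0.049 on hybridization controls. Ndufb1 read 426.4 and 435.7 in pseudopodia, against 234.1 and 460.6 in cell bodies (0.37 ± 0.32), the 1 gene of the 10 whose arrays overlapped. In the others both pseudopodia arrays were the higher, as in 27.4% of all genes. Ndufb6, Ndufb8, Ndufb7, Ndufb3 and Ndufb9, the last a LYR protein, stood between 0.37 and 0.57. Ndufb8 read 6469.8 and 8827.1 in pseudopodia, against 5014.1 and 5330.7 in cell bodies (0.55 ± 0.19), without overlap. It also had a dim probe set, at 30.8 and 99.3 in pseudopodia and 53.1 and 62.7 in cell bodies, that stood at -0.0056 ± 0.45. Ndufb4 was measured only by a dim probe set that was not kept, at 24.4 and 19.6 in pseudopodia and 13.8 and 30.1 in cell bodies. Ndufa11 and Ndufs6 were not analysed here.

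Ndufab1, the mitochondrial acyl carrier protein, serves fatty acid synthesis as well as complex I. It read 3708 and 4409.6 in pseudopodia, against 3222.5 and 3219.7 in cell bodies (0.33 ± 0.17, limma adjusted p = 0.312), without overlap. A dimmer kept probe set, at 309.1 and 208.2 in pseudopodia and 276.8 and 261.3 in cell bodies, stood at -0.078 ± 0.26 with overlap.

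**Figure D4:**
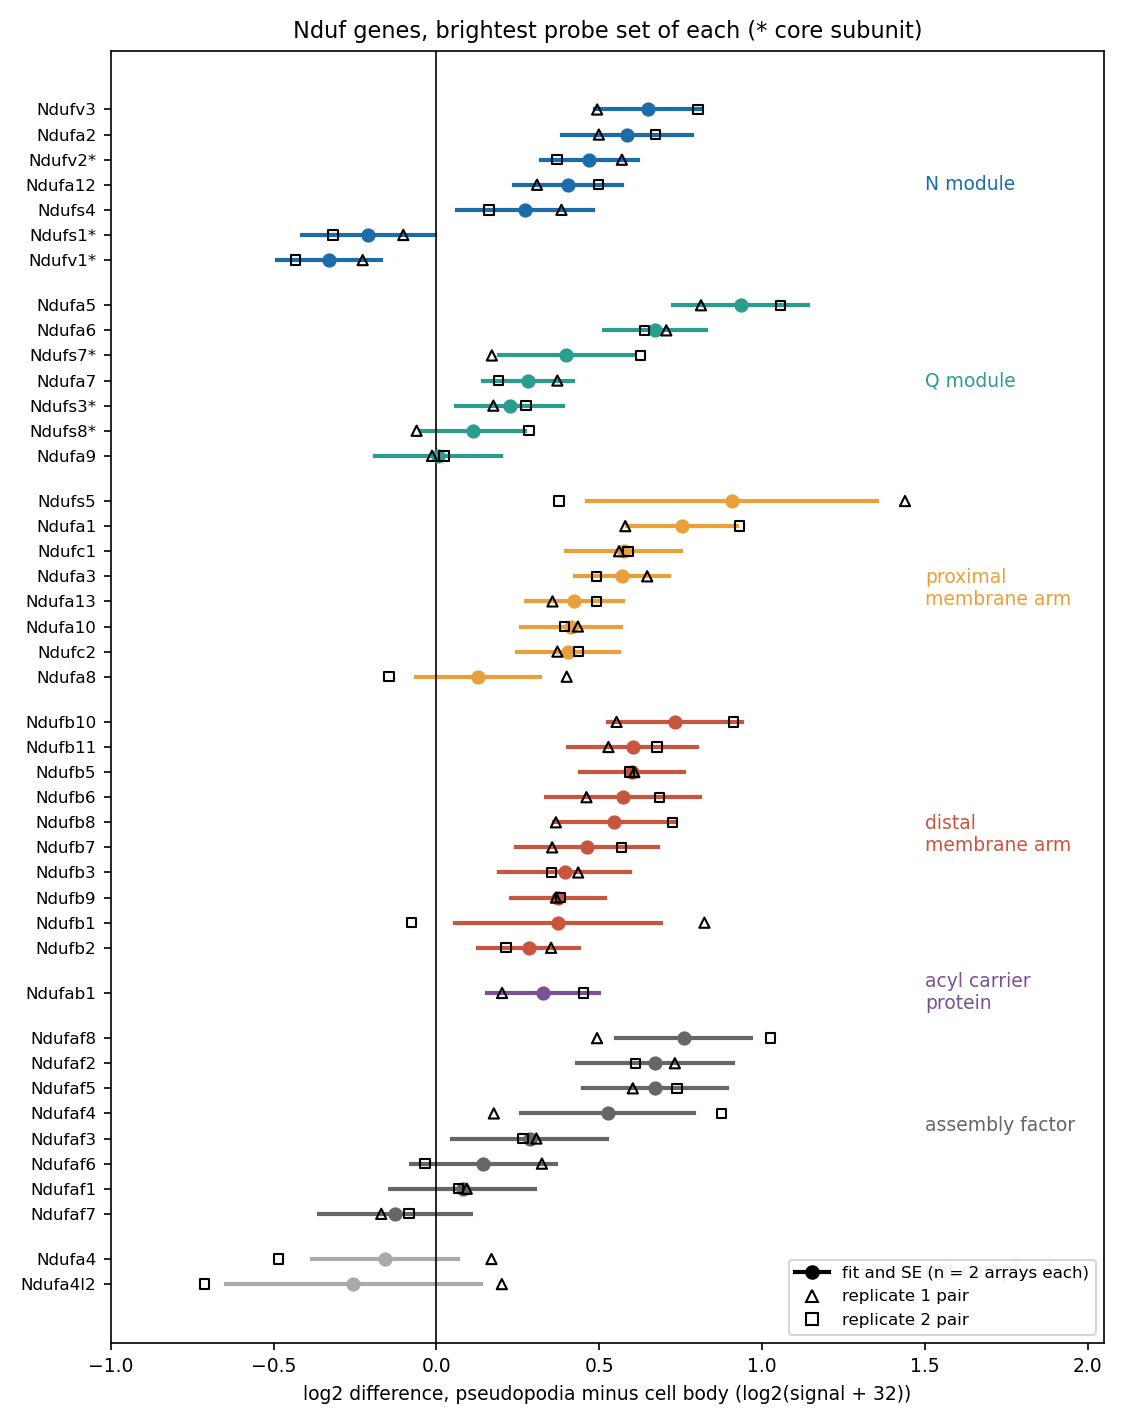
Log2 difference, pseudopodia minus cell body (horizontal axis), of the 43 Nduf genes tested (vertical axis, by role), with the fit and its SE (filled circle and bar) and the replicate 1 (triangle) and replicate 2 (square) pairs. Of the 33 subunit genes 31 lie right of 0 (28 after quantile normalization and 23 on hybridization controls), and the exceptions are the core subunits Ndufs1 and Ndufv1.

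The assembly factors, which build the complex without staying in it, gave a like but less even picture. Of 8 genes, 7 had positive values (4 on hybridization controls, where Ndufaf1, Ndufaf3 and Ndufaf6 turned negative). None passed in either direction by limma. At an unadjusted p under 0.05, 3 were higher and none lower, beside 9.84% of all genes higher and 1245 of 10960 lower. With the replicate number as a block, 3 passed as higher, beside 8.28% of all genes. The median was 0.41, with 0.32 in the replicate 1 pair and 0.44 in the replicate 2 pair. Ndufaf8, a twin CX9C protein that acts with Ndufaf5, read 2686.5 and 3697.4 in pseudopodia, against 1904 and 1808.7 in cell bodies. It stood highest, at 0.76 ± 0.21 (limma adjusted p = 0.0798), but its other kept probe set read 322.4 and 199 in pseudopodia, against 248 and 304.8 in cell bodies, and stood at -0.11 ± 0.28.

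Ndufaf2, a chaperone of late assembly, read 366.2 and 435.2 in pseudopodia, against 214.1 and 279.4 in cell bodies (0.67 ± 0.24, limma adjusted p = 0.153). Ndufaf5, which hydroxylates an arginine of Ndufs7, read 362.5 and 422.3 in pseudopodia, against 233.2 and 246.7 in cell bodies (0.67 ± 0.22, limma adjusted p = 0.128). In both genes the 2 fractions were apart. Ndufaf4, a partner of Ndufaf3 in early assembly, read 473.6 and 755.3 in pseudopodia, against 417.3 and 404.5 in cell bodies. Its difference of 0.53 ± 0.27 came mostly from the replicate 2 pair, at 0.88, against 0.18 in the replicate 1 pair.

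Ndufaf3 stood at 0.29 ± 0.24, at 147.3 and 143.8 in pseudopodia and 116 and 116.9 in cell bodies, and Ndufaf6 at 0.14 ± 0.22, at 341.6 and 303.5 in pseudopodia and 269.7 and 311.4 in cell bodies. The lowest were Ndufaf1, which acts with the membrane arm intermediate, at 264.4 and 236.3 in pseudopodia and 246.9 and 224.8 in cell bodies (0.080 ± 0.22), and Ndufaf7, a methyltransferase, at 331.5 and 419.8 in pseudopodia and 374.8 and 446.1 in cell bodies (-0.13 ± 0.23). Ndufaf6, Ndufaf1 and Ndufaf7 overlapped between fractions.

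Of the 2 genes that share only the name, Ndufa4, now assigned to cytochrome c oxidase, read 7252.5 and 4556.7 in pseudopodia, against 6449.4 and 6384.4 in cell bodies (-0.16 ± 0.23). Its paralogue Ndufa4l2, known as a target of hypoxia signalling, read 47.9 and 26.8 in pseudopodia, against 39.6 and 54.1 in cell bodies (-0.26 ± 0.39). Neither passed, and in both the replicate pairs had opposite signs.

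Probe sets of the same gene often disagreed in size. Of 21 Nduf genes with 2 or more kept probe sets, 6 had values of both signs (Ndufa12, Ndufab1, Ndufaf8, Ndufb8, Ndufs7 and Ndufv1), and the median range within a gene was 0.40, about as large as the shift of the list. The kind of probe set moved with this. In all 12 subunit genes that had both, the brightest probe set ending _a_at, which by its name matches several transcripts of the gene, stood above the brightest one ending _at. The medians were 0.56 and 0.20. Among all genes of the top decile the same order held in 75.7% of 259, with medians of 0.26 and -0.015, and among all genes in 57.2%. With only probe sets ending _at, 20 of 25 subunit genes were positive with a median of 0.27, and none passed.

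**Figure D5:**
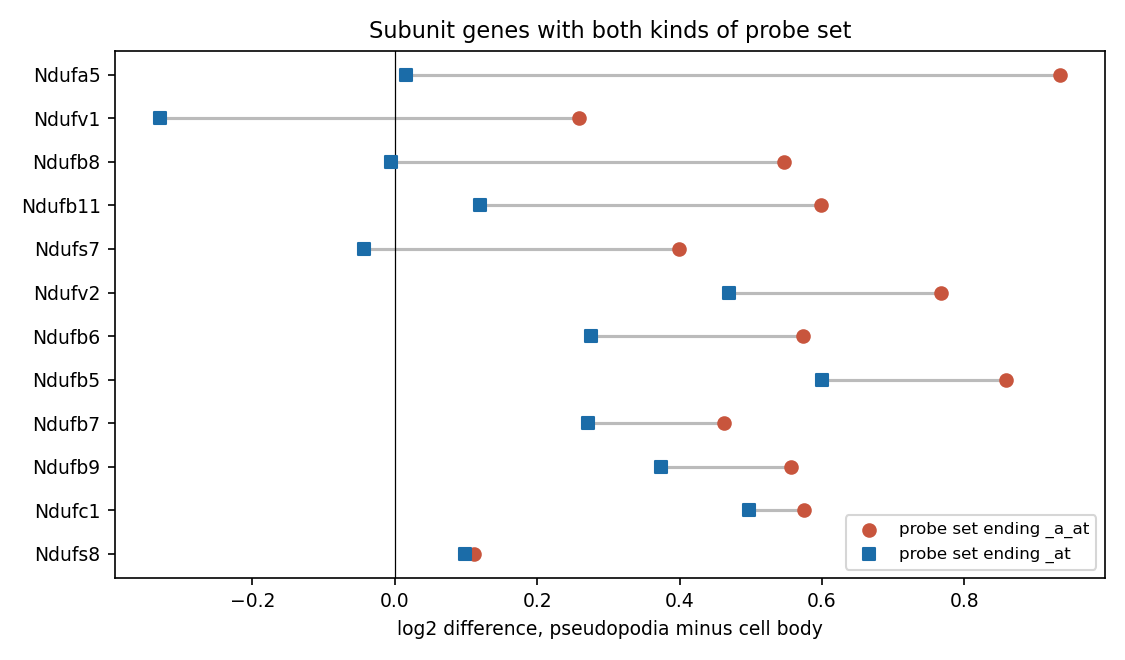
Log2 difference, pseudopodia minus cell body (horizontal axis), of the brightest probe set ending _a_at (circles) and the brightest ending _at (squares) in the 12 subunit genes with both kinds (vertical axis). The circle lies right of the square in each gene, by 0.92 in Ndufa5 and by 0.013 in Ndufs8.

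The rest of the respiratory chain was set beside complex I from a list of complexes II to V and cytochrome c. Of 39 such genes tested, 36 had positive values, 4 passed as higher and none as lower, and the median was 0.38, beside 0.41 for complex I. Over all genes 51.3% were positive, 1.3% passed as higher and 2.61% as lower. Of the 39, 37 lay in the top decile by signal, where 70.6% of all genes were positive and 5.11% passed as higher. The genes that passed were Cox7a2l, which helps complexes join into supercomplexes (1.01 ± 0.15, limma adjusted p = 0.0219), Cycs, cytochrome c (0.92 ± 0.16, limma adjusted p = 0.0284), Uqcrb of complex III (0.83 ± 0.12, limma adjusted p = 0.0229) and Atp5j of ATP synthase (0.79 ± 0.16, limma adjusted p = 0.0382). Whether complex I differed from the other complexes was not tested.

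The mitochondrial genome was represented by ND5, a proton-channel subunit of complex I itself. Its probe set read 11548.3 and 9919.1 in pseudopodia, against 12078.4 and 10369.2 in cell bodies, and the difference was -0.064 ± 0.15 (limma adjusted p = 0.849). The fractions differed by less than the replicates did. Of 8 assembly factors of complex I with other names, 4 had positive values, beside 51.3% of all genes. Only 1 of the 8 passed, as lower, beside 2.61% of all genes. It was Tmem186, a membrane protein of early assembly, at 15.5 and 82.8 in pseudopodia and 234.2 and 332.1 in cell bodies (-2.40 ± 0.50, limma adjusted p = 0.0435). Acad9, Nubpl, Timmdc1, Foxred1, Ecsit, Aifm1 and Tmem70 stood between -0.17 and 0.49.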

How the data were processed

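The authors deposited 1 linear MAS5 intensity for each probe set and array, as named in the submitters' processing notes and the labels. The MAS5 version and detection calls are not given in the sources used here. The 2% trimmed mean was 250 on each array, as found from the values, so differences are relative to each fraction's total signal. Settings files were deposited with the arrays as other, non-numeric content: the 4 arrays had the same chip lot and the same scanner, per the file headers, and same-numbered arrays shared 1 of 2 scan days.

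Genes were named from the platform annotation (34945 probe sets with 1 symbol, 932 with several, 9211 unnamed here). The build behind it is not given in the sources used here, so no gene coordinates are printed beyond that of the promoter window. Each array was rescaled so that its trimmed mean was 500, 32 was added and log2 taken, which understates changes of dim probe sets. The test between fractions was that of limma 3.58.1 (R 4.3.3, variance trend, two-sided, threshold 0.05). It was checked on simulated data whose spread was drawn from its own fitted prior. Those data held no replicate effect, so the check cannot show how the test behaves where arrays share a scan day. An exact permutation of 2 against 2 arrays cannot go below p = 0.333. Members and lists were chosen with earlier results of these data known. All Nduf genes could be named. Signals are given for those past the threshold, the 2 highest and lowest of each role group, and those with probe sets of both signs. A few further members were chosen after their values were seen.

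Replicate numbers pair the arrays by experiment code and scan day. The replicate 2 minus replicate 1 differences of the 2 fractions correlated with r = 0.24 over probe sets, which are not independent. Alternatives covered the pseudocount, filter, scaling, variance model, block, probe set choice and each array left out.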

Additional observations from a re-analysis of the deposited data

How the results depend on the processing

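With 2 arrays per fraction and a threshold that Ndufa5 met narrowly, the count of calls moved with nearly every choice. The subunit list stayed above the median gene in all 18 settings, but several of these could not change that gap. They were median centring, the replicate block, the fit without the variance trend and the fit over genes, each at 0.40. Over the settings the gap ran from 0.18 after quantile normalization to 0.54 without cell body replicate 2. Of the 33 subunit genes, 19 were positive in each setting. The cause of the changes below was not tested.

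Subunit genes called higher, 1 as reported (Ndufa5), numbered 0 with a pseudocount of 16, without a filter, after quantile normalization, on hybridization controls, without the variance trend (7 at an unadjusted p under 0.05), with single-transcript probe sets and with the filter on mean log2 (chosen after seeing the data). Ndufa5 was among the 2 with a pseudocount of 64, the 2 with fit and adjustment over genes, the 3 after median centring and the 20 with the replicate block. It was not among the 2 with the filter at the 75th percentile (Ndufa1 and Ndufa6) or the 5 with the mean of probe sets (Ndufa1, Ndufa6, Ndufb5, Ndufv2 and Ndufv3). Leaving out 1 array, whereupon the lone array of its fraction is assumed to vary like the other fraction, gave 0 to 15, with 0 without either cell body array, 15 without pseudopodia replicate 1 and 5 without pseudopodia replicate 2. Subunit probe sets higher numbered 2 as reported, 1 with a pseudocount of 16, after quantile normalization or with the filter on mean log2, 4 after median centring, 32 with the replicate block (and 1 lower), and 0 without a filter, without the trend or on hybridization controls. Leaving out 1 array gave 0 to 24 higher and 0 to 1 lower. Assembly factors higher numbered 3 with the replicate block and 0 to 4 without 1 array.

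The median of the subunit genes was 0.57 after median centring, 0.25 after quantile normalization, 0.081 on hybridization controls and 0.27 with single-transcript probe sets, and 0.32 to 0.54 without 1 array. Other respiratory chain genes higher numbered 0 without a filter or without the trend, 7 with the filter at the 75th percentile or the mean of probe sets, 1 on hybridization controls or with single-transcript probe sets, 21 with the replicate block and 0 to 16 without 1 array.

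Over all probe sets 245 were higher and 762 lower. These were 39 and 137 without a filter, 370 and 468 after median centring, 54 and 1554 on hybridization controls, 1647 and 2691 with the replicate block, and 0 and 0 without the trend (1571 and 2922 at an unadjusted p under 0.05). Leaving out 1 array gave 0 to 1334 higher and 0 to 2696 lower.

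Signs of uncalled members turned as follows. After quantile normalization Ndufa7, Ndufa9 and Ndufs8 stood at -0.041, -0.11 and -0.21. On hybridization controls Ndufa7, Ndufa8, Ndufa9, Ndufab1, Ndufb2, Ndufs3, Ndufs4 and Ndufs8 stood at -0.052, -0.20, -0.33, -0.0054, -0.049, -0.11, -0.053 and -0.22, and Ndufaf1, Ndufaf3 and Ndufaf6 at -0.23, -0.0094 and -0.17. Ndufaf7 stood at 0.029 after median centring. With the mean of probe sets Ndufa12 stood at -0.058 and Ndufv1 at 0.0057. With single-transcript probe sets Ndufa12, Ndufab1, Ndufaf8, Ndufb8 and Ndufs7 stood at -1.45, -0.078, -0.11, -0.0056 and -0.043. Leaving out each array in turn gave -0.49 to 0.18 for Ndufa4, -0.54 to 0.034 for Ndufa4l2, -0.078 to 0.33 for Ndufa8, -0.16 to 0.17 for Ndufa9, -0.29 to 0.036 for Ndufaf7, -0.092 to 0.84 for Ndufb1 and -0.085 to 0.31 for Ndufs8.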
